A study of Gallus gallus with 8 samples.

Results

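Trigeminal ectoderm of chick embryos was cultured with FGF2 or without it, and the transcripts that differed between the 2 conditions are described here in both directions. The members of the comparison are the 4 arrays of this culture, out of 8 arrays in the series, and all 38439 probe sets left after removal of 96 control probe sets. Weight is placed on the 11616 probe sets (7016 genes) with a mean intensity of 100 or more in at least 1 of the 2 conditions. Of these, 10520 reached 100 in both conditions, 702 with FGF2 alone and 394 without FGF2 alone.

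The study asked which genes of the otic placode can be induced by FGF in ectoderm that is fated to another placode. Ectoderm of the presumptive trigeminal region was taken from stage 8 embryos and grown in collagen gels for 18 h in a defined medium (DMEM/F12 with N2 supplement). The group called FGF2 received 50 ng/ml of recombinant human FGF2 and the group called no FGF2 received 0 ng/ml. The other 4 arrays hold otic ectoderm and lateral ectoderm, dissected at stage 10 and not cultured, with 2 arrays each. Each array received RNA pooled from many pieces of ectoderm, which was amplified and biotin-labelled. A pool cannot show how single embryos vary, so the p-values measure only the spread between pools. In whole tissue, moreover, fewer cells of a type and less RNA per cell cannot be told apart, and cultured and fresh tissue differ in stage and handling as well as in place.

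Fibroblast growth factors bind receptor tyrosine kinases (FGFR1 to FGFR4) together with heparan sulfate chains and activate the RAS and MAP kinase cascade. The cascade ends on transcription factors of the Ets family, and it switches on its own inhibitors, among them the sprouty proteins, the MAP kinase phosphatases and the membrane protein IL17RD (also called SEF). In the head ectoderm FGF from mesoderm and hindbrain is known to start otic placode formation, and the trigeminal placode gives rise to sensory neurons of the face.

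Each value below is the intensity deposited for a probe set on an array, on a linear scale. Log2 fold changes are FGF2 over no FGF2, from limma in one fit over the 8 arrays, with standard errors (SE) and n = 2 arrays per group. A probe set was called higher or lower, and is said to have risen or fallen, when its fold change was above 2 and its unadjusted two-sided p was under 0.05. No probe set reached an adjusted p under 0.05 over all 38439 (0 passed, smallest adjusted p 0.28 from limma, against 2020 at an unadjusted p under 0.05), so each call is a single-gene call without correction for the number of genes. A p limit of 0.05 passes a share of about 0.05 of probe sets where nothing differs, and 2020 of 38439 is close to that share. When only the 11241 probe sets of mean 100 or more over the 8 arrays were fitted and the prior variance followed the intensity, 9 passed (0.0801%, 8 higher and 1 lower). An exact permutation test of 2 arrays against 2 cannot give a two-sided p under 0.33.

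Markers of ectoderm were bright on all 4 arrays. All 6 measured markers of surface and placodal ectoderm had intensities of 100 or more on every trigeminal array, with EPCAM, an epithelial adhesion molecule, at 10660.4 and 8325.6 without FGF2 and at 10915.3 and 10688 with it. PAX3, the defining transcription factor of the ophthalmic trigeminal placode, was at 13.7 and 34 without FGF2 and 34.4 and 18.6 with FGF2, near the median of all probe sets (27.6 to 29.5 on these arrays). The summed intensity of 6 markers of the trigeminal placode was 368 and 702 in the no-FGF2 arrays and 1068 and 1338 in the FGF2 arrays. Much of that difference was in EYA2 (115.7 and 122.4 against 449.6 and 756.6), which is also counted among the surface and placodal markers. The groups overlapped in PAX3, FGFR4 and DLL1, and did not in the dim genes NEUROG1 and NEUROG2. The label trigeminal therefore rests on the dissection and not on PAX3. The summed intensity of 10 markers of cranial mesenchyme was 3162 and 1917 without FGF2 and 3320.2 and 3230.0 with FGF2. That of 7 markers of endoderm and heart was 1173 and 225 without FGF2 and 776 and 695 with FGF2, and none of them stood at 100 or more on all 4 arrays. No-FGF2 replicate 1 held more of the liver and endoderm transcript TTR than replicate 2 (612.1 against 51.6) and less of the neural gene SOX2 (1288.3 against 3002.8). Of 12 markers of endothelium and blood, 0 stood at 100 or more on all 4 arrays, and their sums were 529 and 434 without FGF2 and 618 and 689.9 with FGF2. By the same count 5 of 10 mesenchyme, 3 of 7 neural tube and 4 of 6 neural crest markers stood at 100 or more. The crest marker SOX10 was at 1909.6 and 3131.4 without FGF2 and 1395.1 and 1228.4 with it. ZIC1, a neural tube marker, was at 1410.5 and 2993.7 without FGF2 and 2008.3 and 1607.3 with it. Both were named after their values were seen. The part of these cell types in the results was not tested. Among the bright probe sets the replicates correlated with r = 0.94 without FGF2 and 0.98 with FGF2, and their median absolute log2 difference was 0.351 and 0.184.

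More bright probe sets rose with FGF2 than fell. Of the 11616, 162 rose (1.39%, 128 genes) and 61 fell (0.525%, 46 genes), and 21 and 9 of these had no gene symbol. Calls among all 38439 probe sets numbered 1054 higher (2.74%) and 868 lower (2.26%), so that 892 and 807 of them lay under 100 in both conditions. Over 4-fold changes numbered 40 upward and 13 downward. The FGF2 arrays lay entirely above or below the no-FGF2 arrays in all 162 and all 61, a separation that the call itself largely requires. Of the 162, 78 reached 100 only with FGF2, and of the 61, 30 only without it, and for such probe sets the limit on intensity already favors a difference. The balance of directions moved with the scaling of the arrays. The median log2 fold change was 0.16 over the bright probe sets and 0.10 over all, and after quantile normalization (0.01 and 0.00) 118 rose and 99 fell. The higher share of the calls was then 54.4% in place of 72.6%, and 66.2% after median centring. Under the intensity limit, F2RL2 (means 19.9 and 101), RNF152 (40.4 and 102) and PAX2 (28.0 and 102) lay just inside, and COL4A2 (46.2 and 98.8), UPP2 (30.1 and 98.2) and a probe set of CRYBA4 (97.3 and 43.0) just outside.

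**Figure D1:**
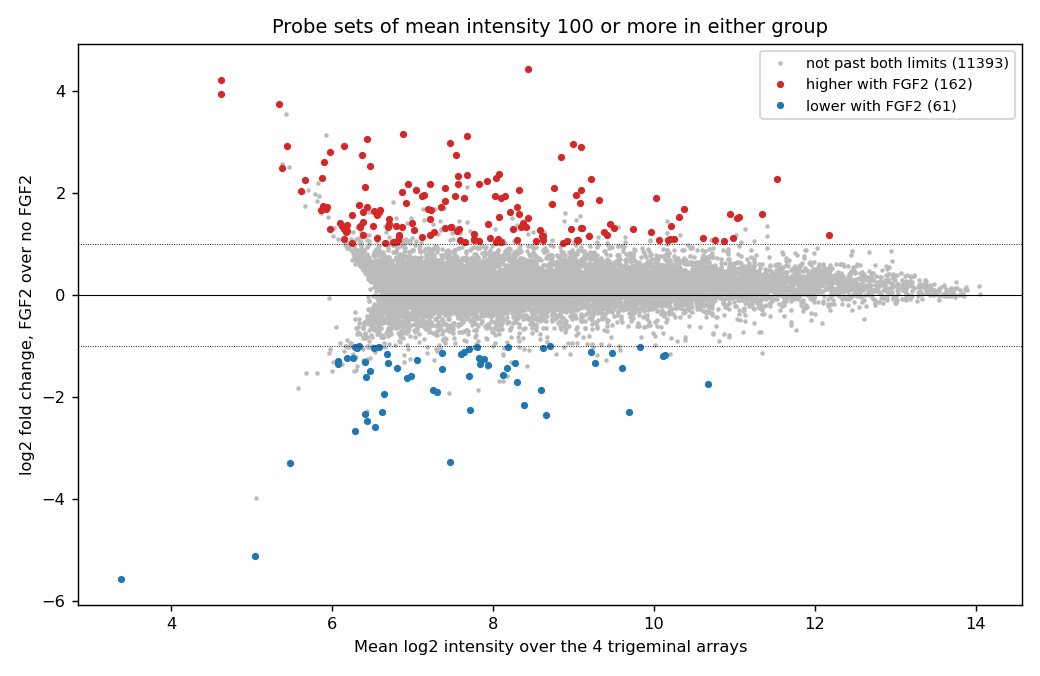
Each point is 1 of the 11616 probe sets with a mean intensity of 100 or more in either condition. The x axis gives the mean log2 intensity over the 4 trigeminal arrays and the y axis the log2 fold change of FGF2 over no FGF2, with dotted lines at 2-fold. The 162 higher probe sets (red) and 61 lower ones (blue) spread over a wide range of intensity. The largest decreases, those of LRRC17 and GNB3, lie at low means, which include their own fallen values.

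Several genes that restrain FGF signaling rose with FGF2. Of 22 measured feedback genes of the FGF and MAP kinase pathway, each counted on its brightest probe set, 7 rose, 0 fell and 15 were not called, against 2.23% higher and 1.47% lower over all 13036 genes. Their median log2 fold change was 0.57, against 0.12 over all genes, and 20 of the 22 values were above 0. Of 40 cell cycle genes 34 were above 0 as well, with a median of 0.39. The study picked 6 of these genes as FGF2 responders from the same arrays, so the count is not independent evidence of its direction.

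DUSP6, the phosphatase that inactivates ERK in the cytoplasm, stood at 51.8 and 76.8 without FGF2 and at 434.6 and 566.3 with it. The log2 fold change was 2.98 (SE 0.53, n = 2 arrays per group, unadjusted p = 0.0012 from limma). Both treated arrays lay below the otic arrays (573.4 and 1170.8), and 1 of them lay within the range of the lateral arrays (235.1 and 448.1). SPRY2, a sprouty protein that blocks signaling between receptor and RAS, rose from 189.4 and 171.8 to 1102.3 and 1254.7, by 2.70 (SE 0.39, unadjusted p = 3.4e-04 from limma). SPRY1, of the same family, rose from 89.3 and 57.7 to 492.1 and 476, by 2.75 (SE 0.62). In both genes the replicates of a group lay close together and far from the other group. The nuclear phosphatase DUSP5 rose from 87.8 and 38.6 to 310.4 and 223.5 (2.18, SE 0.66). DUSP4, another nuclear phosphatase of MAP kinases, rose from 323.5 and 369.2 to 827.7 and 887.4 (1.31, SE 0.33). IL17RD, which acts on the receptors at the membrane, rose from 338.6 and 862.8 to 2032.4 and 2033.2 (1.91, SE 0.58), and 2 further bright probe sets of it gave 2.05 and 1.65. Its no-FGF2 arrays differed by more than the FGF2 arrays did. SPRY3 also rose (2.52, SE 0.73) but stayed dim, at 34.2 and 19.1 with FGF2.

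Several feedback genes did not pass. SPRED1, an inhibitor of RAF activation, was at 778.2 and 906.5 without FGF2 and at 1432 and 1702.8 with it (0.89, SE 0.35), under the fold limit. A further 3 bright members had values near 0, namely the phosphatase gene DUSP14 (0.14, SE 0.32), the FGF receptor partner FLRT3 (0.18, SE 0.49) and the RAS GTPase activator RASA1 (0.12, SE 0.52). Calls in this group depended on single arrays for 3 genes. DUSP5 did not pass without FGF2 replicate 1 (1.94) or no-FGF2 replicate 2 (1.58), IL17RD without either FGF2 array (1.91 and 1.91) or no-FGF2 replicate 1 (1.24), and SPRY3 without FGF2 replicate 1 (2.10) or no-FGF2 replicate 1 (2.47). The group count was 4 without FGF2 replicate 1.

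Some FGF ligand genes rose, mostly at low intensity. Of 18 measured ligand genes 4 rose and 0 fell, where 2.23% of all genes rose and 1.47% fell. Their median log2 fold change was 1.02, and 16 of the 18 had means under 100 in both conditions. FGF8, a ligand made by several placodes and signaling centers, rose from 30.1 and 33.9 to 164.4 and 278.2, by 2.74 (SE 0.61, unadjusted p = 0.0037 from limma). It was the one bright ligand that rose, and its treated values lay above those of otic ectoderm (39.1 and 117.8). FGF10 rose from 4.9 and 4.4 to 37.6 and 12.7 (2.23, SE 0.58). FGF19, a ligand with a known part in chick otic induction, rose from 28.9 and 36.4 to 97.7 and 73.8 (1.39, SE 0.52). The study, from the same arrays, lists FGF19 with the otic genes that FGF2 did not raise. FGF3 rose from 26.4 and 36.9 to 59.3 and 71 (1.06, SE 0.36). These 3 genes remained under 100 on all 4 arrays, and FGF19 was far below its otic level (349.7 and 359.9). FGF13, an intracellular member that does not act as a secreted ligand, was at 359.9 and 719.1 without FGF2 and 379.5 and 334.8 with FGF2 (−0.51, SE 0.52). The probe set for chick FGF2 stood at 20.8 and 11.3 without the protein and 25.8 and 20.8 with it (0.60). The call of FGF19 was lost without any one of the trigeminal arrays (1.19 to 1.59) or either otic array (1.39), and that of FGF3 without either FGF2 array (1.19 and 0.93) or no-FGF2 replicate 1 (0.81) and after quantile normalization (0.99). FGF18, named after its value was seen, was at 16.8 and 7.9 against 74.6 and 53.3 (2.45, SE 1.27) and passed in the fit of the 4 trigeminal arrays (SE 0.52, unadjusted p = 0.011 and adjusted p = 0.56 from limma). With the list counted again, 2 ligands rose without either FGF2 array, and 6 without no-FGF2 replicate 2.

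Of 20 measured genes of receptors and proximal signaling, 0 rose and 1 fell, with a median of 0.04. At the shares of all genes (2.23% higher and 1.47% lower) a list of this size yields few or no calls. FGFR1, a receptor of mesenchyme and neural tissue, stood at 1243.5 and 1331.3 without FGF2 and 1668 and 1330.8 with FGF2 (0.21, SE 0.38). FGFR2 was at 887.1 and 1408.2 without FGF2 and 780.6 and 685.2 with FGF2 (−0.61, SE 0.44). FGFR3 was at 829.3 and 1141.3 against 442 and 552 (−0.98, SE 0.45, unadjusted p = 0.072 from limma). The FGF2 arrays of FGFR2 and FGFR3 lay below both no-FGF2 arrays, but neither difference passed both limits. The adaptor GRB2 (0.09, SE 0.44), the kinase MAP2K1 (0.13, SE 0.40) and the phospholipase PLCG1 (0.13, SE 0.45) had bright values on every array and intervals that spanned 0. The gene that fell was the co-receptor KL, from 45.6 and 24.3 to 11.4 and 14.5 (−1.37, SE 0.56), at low intensity, whereas another dim KL probe set rose from 1.5 and 0.9 to 11.3 and 21.7 (3.68, SE 0.73). The lower call was lost without either FGF2 array (−1.20 and −1.55), no-FGF2 replicate 1 (−0.92) or either lateral array (−1.37).

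**Figure D2:**
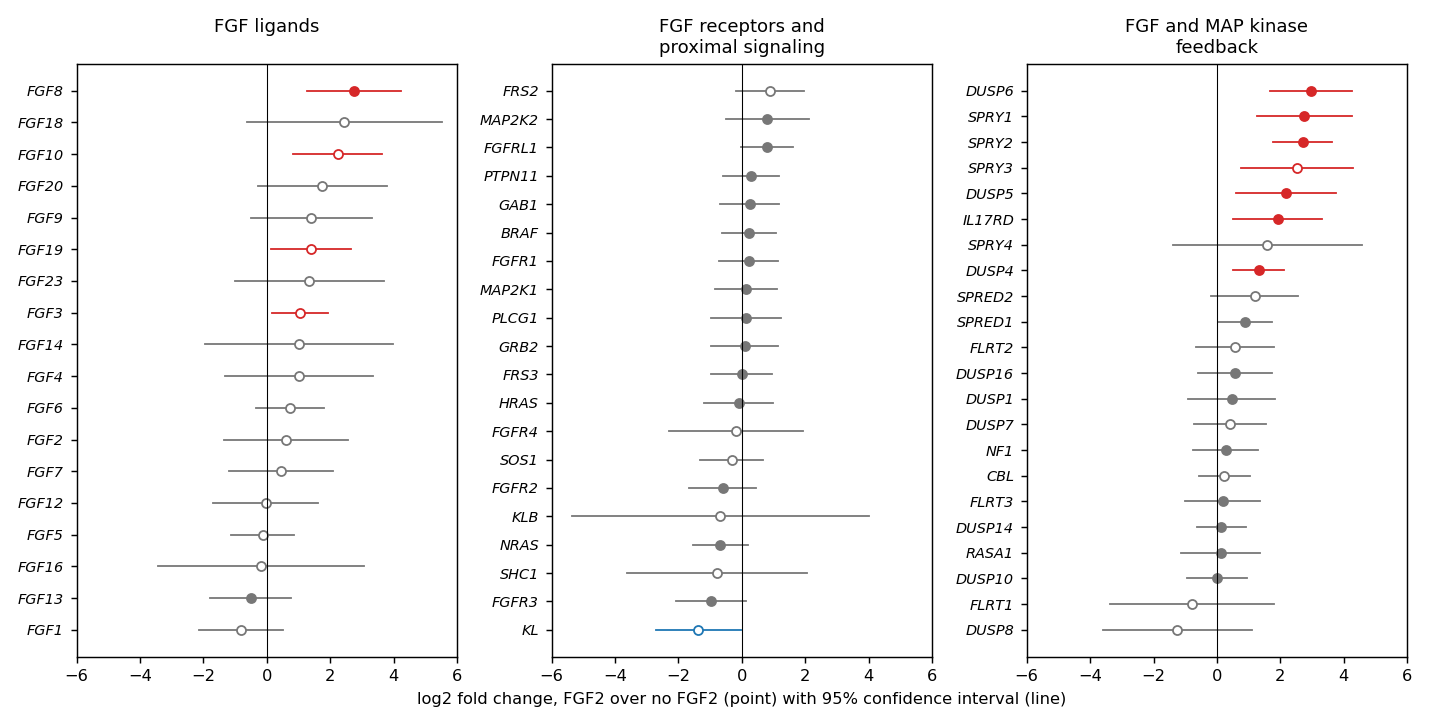
Log2 fold changes of FGF2 over no FGF2 (x axis, points) with 95% confidence intervals from limma (lines) for the measured genes of the 3 lists, each on its brightest probe set. Red genes rose, blue fell and gray did not pass both limits, and open points mark genes with means under 100 in both conditions. The feedback genes DUSP6, SPRY1, SPRY2, DUSP5, IL17RD and DUSP4 lie to the right with filled points. Among the receptors and proximal genes the one call is that of KL, which fell.

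Among the Ets and immediate-early factors, the nuclear readers of the cascade, 3 of 28 measured genes rose and 0 fell. Over all genes 2.23% rose and 1.47% fell. The list median was 0.35, against 0.12 over all genes, and 26 of 28 values were above 0. That lean was not particular to this list. Of 40 cell cycle genes 34 were above 0 (median 0.39), and of 24 heat shock and stress genes 21 (median 0.30). ETV4, an Ets factor of the PEA3 group used as a reporter of FGF signaling, rose from 60.1 and 85.5 to 271 and 286, by 1.96 (SE 0.54), close to its otic arrays (218.8 and 259.4). ELK3, an Ets factor of the ternary complex group, rose from 604.5 and 702.3 to 1574.5 and 1509.1 (1.24, SE 0.35). ETV5, the other measured PEA3 factor that rose, went from 292.1 and 372.3 to 680.1 and 653.6 (1.02, SE 0.35), and its value was under the fold limit after quantile normalization (0.88) and median centring (0.96). Its 2 further bright probe sets did not pass (1.84, SE 0.99, and 0.87, SE 0.47). MYCN (0.62, SE 0.42), GABPA (0.36, SE 0.38), JUN (0.34, SE 0.61) and ETS1 (0.27, SE 0.40) were bright and did not pass. The immediate-early genes FOS (0.22, SE 1.52) and EGR1 (0.17, SE 0.94) did not pass either, with wide errors. Without no-FGF2 replicate 1 ETV4 (1.70), ELK3 (1.13) and ETV5 (0.84) lost their calls, ELK3 (1.21) and ETV5 (0.99) lost them without FGF2 replicate 1, and ETV5 also without FGF2 replicate 2 (1.04). The list count was 1 without FGF2 replicate 1 and 1 without no-FGF2 replicate 1.

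Transcription factors of the otic and other placodes changed unevenly. Of 49 measured, 8 rose and 1 fell (median 0.23), where 2.23% of all genes rose and 1.47% fell. The study picked 10 of the listed genes from these arrays. GBX2, a homeobox factor of otic ectoderm and anterior hindbrain, stood at 149.3 and 224.2 without FGF2 and at 1445.6 and 1409.6 with it. The log2 fold change was 2.96 (SE 0.39, unadjusted p = 2.1e-04 from limma). It was far above lateral ectoderm (303.8 and 454.6) and far below otic ectoderm (8359.8 and 8846.3). EYA2, a placodal co-activator of the Eyes absent family, rose from 115.7 and 122.4 to 449.6 and 756.6 (2.29, SE 0.38), a range that includes its otic arrays (532.1 and 599.5). MECOM, a zinc finger factor, rose from 74.3 and 96.4 to 477.5 and 376.8 (2.33, SE 0.49), above its otic arrays (152.4 and 257.4).

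PAX2, a paired-box factor expressed early in the otic placode, was at 42 and 14 without FGF2 and at 82.6 and 121 with it (2.04, SE 0.68), below its otic arrays (136.8 and 355.2). A second PAX2 probe set was at 18.9 and 18.2 against 116.7 and 96 (2.51, SE 1.10) and did not pass. FOXI2, a forkhead factor of placodal ectoderm, rose from 315.3 and 231.6 to 739.8 and 1690.7 (2.05, SE 0.74), and its FGF2 values lay above both otic arrays (50.9 and 204.3). The study describes FOXI2 as a gene of non-otic ectoderm. In its in situ hybridization of FGF2-treated cultures, neither FOXI2 nor CYP26C1 was expressed where PAX2 was. NKX6-1, a homeobox factor known from the ventral neural tube and pancreas, rose from 26.4 and 21.6 to 163.3 and 169.3 (2.80, SE 0.48). In otic ectoderm it stood at 51.2 and 64.7 and in lateral ectoderm at 42.2 and 99.3, so that these groups overlapped. The forkhead gene FOXC1 (1.48, SE 0.46) and the homeobox repressor HESX1 (1.18, SE 0.40) rose below an intensity of 100. HMX1, a homeobox factor of sensory ganglia, fell from 988.5 and 783.4 to 347 and 472.4 (−1.12, SE 0.40).

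Not every factor of the otic placode was called higher. GATA3, a zinc finger factor required in the inner ear, was at 155.4 and 110.5 without FGF2 and 89.3 and 136.5 with FGF2 (−0.25, SE 0.50), against 537.8 and 1040.6 in otic ectoderm. SOHO1, a homeobox factor of sensory organs, was at 3410.1 and 3247 without FGF2 and 1818.4 and 2202 with FGF2 (−0.73, SE 0.91). PAX6, the factor of lens and olfactory fate, was at 3587.7 and 4168.9 against 1671.9 and 1838.5 (−1.14, SE 0.63, unadjusted p = 0.12 from limma). The groups of SOHO1 and of PAX6 did not overlap, and PAX6 passed in the fit of the 4 trigeminal arrays alone (−1.14, SE 0.29, unadjusted p = 0.019, adjusted p = 0.63). SALL1, a zinc finger factor, was at 789.6 and 721.8 against 1753.9 and 1746.2 (1.21, SE 0.54), SOX8 at 148.9 and 222.2 against 383.9 and 378.6 (1.07, SE 1.14) and SP8 at 318.4 and 591.7 against 1309.6 and 1015.7 (1.41, SE 0.71). These 3 genes had FGF2 arrays above both no-FGF2 arrays without passing over 8 arrays, and all 3 passed in the fit of 4 arrays. There the SE was 0.28 for SALL1, 0.34 for SOX8 and 0.45 for SP8. The fit of 8 arrays also counts the spread between otic arrays and between lateral arrays. The study reports SOX8 as raised by FGF2 on these arrays and, by Q-PCR, in presumptive otic ectoderm. SOX2 (0.93, SE 1.24) and DLX5 (0.14, SE 0.35) were bright and did not pass. SALL1, SP8, SOX8 and GATA3 were named in this paragraph after their values were seen.

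Some of these calls rested on single arrays. FOXI2 did not pass without FGF2 replicate 2 (1.45), either no-FGF2 array (2.27 and 1.83) or either lateral array (2.05). PAX2 lost its call without FGF2 replicate 2 (1.77) or no-FGF2 replicate 2 (1.25), FOXC1 without FGF2 replicate 1 (1.19) or no-FGF2 replicate 2 (1.00), and HMX1 without FGF2 replicate 1 (−0.90) or either no-FGF2 array (−0.95 and −1.29). GBX2, EYA2, MECOM and NKX6-1 kept their calls in every setting in which they were tested. Of the listed factors 4 rose without no-FGF2 replicate 2.

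**Figure D3:**
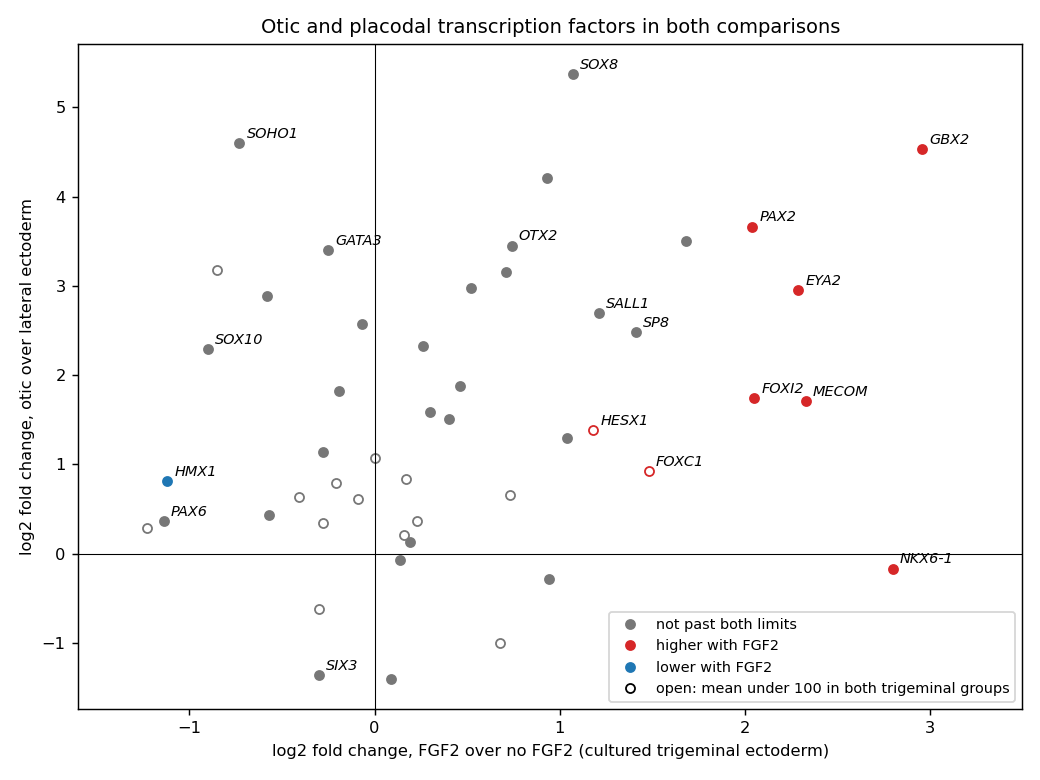
Each point is 1 of the 49 measured transcription factor genes of the otic and other placodes. The x axis is the log2 fold change of FGF2 over no FGF2 in cultured trigeminal ectoderm and the y axis that of otic over lateral ectoderm. GBX2, EYA2 and PAX2 lie high on both axes, NKX6-1 is high on the x axis alone (2.80 and −0.17), and SOHO1 (−0.73 and 4.60) and GATA3 (−0.25 and 3.40) on the y axis alone.

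Enzymes of retinoic acid metabolism included the gene of largest increase among bright probe sets. Retinoic acid is a vitamin A derivative that patterns the head along its length, and CYP26 enzymes degrade it whereas ALDH1A enzymes make it. CYP26C1 rose from 93.6 and 59.8 to 1252.2 and 2055.9 in the probe set of largest change, by 4.42 (SE 0.67, a fold of 21.4, unadjusted p = 4.8e-04 from limma). Its brightest probe set rose from 237 and 168.9 to 1236.2 and 1806.8, by 2.90 (SE 0.52). Otic ectoderm was at 422 and 804.8 on that probe set, below the treated explants, and lateral ectoderm at 49.9 and 93. ALDH1A3, which synthesises retinoic acid, rose from 1183.7 and 1513.3 to 6400.6 and 6598.4 (2.28, SE 0.33, unadjusted p = 3.7e-04 from limma). It was far lower in both fresh tissues (47.3 and 54.6 in lateral ectoderm, 56.8 and 55.5 in otic ectoderm). A degrading and a synthesising enzyme thus rose together.

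Over the list, 3 of 19 measured genes rose and 0 fell, where 2.23% of all genes rose and 1.47% fell. The list median was 0.04. CYP26B1 was the other gene that rose, from 10.5 and 25.6 to 41.7 and 57.2 (1.57, SE 0.61), and its call was lost without either FGF2 array (1.80 and 1.35), no-FGF2 replicate 1 (0.93) or either otic array (1.57). CYP26A1, named after its value was seen, was at 60.7 and 41.2 against 148.8 and 161.5 (1.63, SE 0.68, unadjusted p = 0.051 from limma), and it passed in the fit of the 4 trigeminal arrays (SE 0.34, unadjusted p = 0.011, adjusted p = 0.56). Without no-FGF2 replicate 1 there was 1 gene of this list that fell. RDH10, which makes retinaldehyde, was at 642.3 and 1920.2 without FGF2 and 546.6 and 510.9 with FGF2 (−1.07, SE 0.60). The large gap between its no-FGF2 arrays left it short of the limit. STRA6, a receptor for retinol uptake, did not pass (0.09, SE 0.36).

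Genes listed under sensory neuron formation were called in both directions, the 2 lower ones being genes of eye and head development. Of 30 measured, 6 rose and 2 fell, where 2.23% of all genes rose and 1.47% fell. The median was 0.12, equal to that of all genes, and 9 of the listed genes were picked by the study from these arrays. NEUROD1, a basic helix-loop-helix factor of newborn neurons, rose from 71.8 and 68.2 to 561.6 and 646.8, by 3.11 (SE 0.57). On the otic and lateral arrays it was at 2.7 to 12.7. ISL1, a LIM homeobox factor of sensory neurons, rose from 185.5 and 113.6 to 452.5 and 686.4 (1.94, SE 0.68), and a second bright probe set gave 1.30 (SE 0.70) without passing. NGFR, the low-affinity neurotrophin receptor, rose from 57.3 and 186.2 to 324.1 and 461 (1.90, SE 0.71). EBF1 rose from 52.6 and 57.2 to 156.2 and 182.4 (1.62, SE 0.47), and its relative EBF3 from 28.8 and 28.8 to 96 and 81.9 (1.62, SE 0.35). Both are helix-loop-helix factors of differentiating neurons. ISL2 rose at low intensity (3.20, SE 1.09).

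MAB21L1 and MAB21L2, related genes of eye and head development, were the members that fell. MAB21L1 went from 1427.1 and 586.6 to 123.6 and 255.3 (−2.36, SE 0.73) and MAB21L2 from 587.4 and 864.3 to 130.4 and 193.7 (−2.16, SE 0.75). Structural genes of neurons were bright without passing, with NEFM at 0.09 (SE 0.65), DCX at −0.02 (SE 0.46), TUBB3 at −0.02 (SE 0.71) and GAP43 at −0.09 (SE 0.54). NEUROG1, the factor upstream of NEUROD1, was at 17.5 and 12.7 against 38.8 and 83.5 (1.93, SE 1.02) and did not pass (named after its value was seen).

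Single arrays decided many calls in this group. ISL1 was lost without FGF2 replicate 2 (1.64) or no-FGF2 replicate 2 (1.59), ISL2 without FGF2 replicate 2 (2.76) or no-FGF2 replicate 2 (1.89), and EBF1 without FGF2 replicate 2 (1.51) or no-FGF2 replicate 1 (1.56). NGFR was lost without either FGF2 array (2.16 and 1.65), no-FGF2 replicate 1 (1.05) or either lateral array (1.90). MAB21L1 was lost without FGF2 replicate 1 (−1.84) or no-FGF2 replicate 1 (−1.72), and MAB21L2 without any one trigeminal array (−1.88 to −2.45). NEUROD1 and EBF3 kept theirs with every array left out in turn. Without FGF2 replicate 2 the list held 2 genes that rose and 1 that fell, and without no-FGF2 replicate 1 it held 4 and 0.

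Members of other signaling pathways were called in small numbers, where 2.23% of all genes rose and 1.47% fell. In the Notch pathway 2 of 16 measured genes rose and 0 fell (median 0.53). HEY1, a transcriptional target of Notch, rose from 1152.2 and 1143.3 to 3447.1 and 3415.1 (1.58, SE 0.41), with replicates that nearly coincided, and the ligand gene JAG2 rose at low intensity (2.12, SE 0.70), a call lost without either FGF2 array (2.28 and 1.96) or no-FGF2 replicate 2 (1.44). The modulators LFNG (0.31, SE 0.38) and MIB1 (0.53, SE 0.35) and the receptor NOTCH2 (0.06, SE 0.44) did not pass. In the Wnt pathway 3 of 47 rose and 1 fell (median 0.14). The Wnt receptor FZD8 rose from 88.2 and 131 to 570.2 and 407.6 (2.17, SE 0.45) and FZD5 from 335.5 and 330.3 to 1655.4 and 899.4 (1.87, SE 0.47). FZD5 was dim in both fresh tissues (38.3 and 66.2 in lateral ectoderm, 53.8 and 70.4 in otic ectoderm), and FZD8 in the explants was within the range of its otic arrays or above it (280.6 and 442.7). The ligand WNT6, known from surface ectoderm, fell from 113.1 and 122.3 to 50.6 and 49.9 (−1.23, SE 0.46), a call lost without any one trigeminal array (−1.17 to −1.28). WNT10A rose at very low intensity (1.67, SE 0.44). The effector CTNNB1 (0.21, SE 0.32) and the Wnt target AXIN2 (−0.58, SE 0.48, named after its value was seen) did not pass.

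In the BMP, activin and TGF-beta pathways 2 of 49 measured genes rose and 1 fell (median 0.01). Over all genes 2.23% rose and 1.47% fell. INHBA, which encodes the subunit of activin A, rose from 24.9 and 28.2 to 85.9 and 197.6 on its brightest probe set (2.30, SE 0.71), and from 17.1 and 2.3 to 66.6 and 138.7 on another (3.94, SE 1.15). Both calls were lost without FGF2 replicate 2 (1.70 and 3.41) and without no-FGF2 replicate 2 (2.39 and 2.49), and the first also without no-FGF2 replicate 1 (2.21). INHA, the inhibin alpha subunit, rose at low intensity (2.66, SE 0.45), and the BMP-binding protein BMPER fell at low intensity (−1.28, SE 0.45), a call lost without FGF2 replicate 2 (−1.05) or no-FGF2 replicate 2 (−1.04). The BMP targets ID1 (1.18, SE 0.52), ID2 (−0.19, SE 0.51) and BAMBI (−0.48, SE 0.56) did not pass. Without no-FGF2 replicate 1 the counts were 4 that rose and 2 that fell.

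Of 37 measured genes of epidermis and surface ectoderm, 0 rose and 1 fell (median −0.06), where 2.23% of all genes rose and 1.47% fell. KRT80, a keratin, was the one that fell, from 22.2 and 11.8 to 0.8 and 1.9 (−3.55, SE 0.61), values under the array medians throughout. The abundant epithelial genes EPCAM (0.20, SE 0.33), CLDN1 (0.33, SE 0.34), ANXA2 (−0.12, SE 0.59) and KRT24 (0.41, SE 0.50) did not pass. Of 20 measured lens genes, each on its brightest probe set, 0 were called in either direction by limma, and 0 had an unadjusted p under 0.05 (median 0.03). CRYBA4 stood at 479.9 and 494.1 without FGF2 and 380.0 and 375.4 with FGF2 (−0.37, SE 0.79). Another CRYBA4 probe set, with means under 100 in both conditions, fell (−1.19, SE 0.46). So short a list yields few or no calls at the shares of all genes, and without no-FGF2 replicate 2 there was 1 lens gene that rose and 2 epidermal genes that fell, while 1 epidermal gene rose without no-FGF2 replicate 1. In 26 genes of neural crest and neural border 1 rose and 1 fell (median 0.12), and the summed intensity of 6 neural crest markers was 4022 and 5755 in the no-FGF2 arrays and 4278 and 4131 in the FGF2 arrays. SNAI1, a repressor of epithelial adhesion, rose from 191.9 and 120 to 353.8 and 447.6 (1.39, SE 0.46), a call lost without FGF2 replicate 2 (1.22) or no-FGF2 replicate 2 (1.05). The endothelin receptor EDNRB fell at low intensity (−1.05, SE 0.37), a call lost without either FGF2 array (−1.09 and −1.0) or no-FGF2 replicate 2 (−0.70). Without no-FGF2 replicate 1 there were 2 neural crest genes that fell.

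Lists of other cell types that a dissected piece could hold were also counted, where 2.23% of all genes rose and 1.47% fell. Of 25 genes of cranial mesenchyme and mesoderm, 3 rose and 1 fell (median 0.17). TWIST1, a helix-loop-helix factor of mesenchyme, rose from 261.3 and 173.5 to 430.5 and 678.8 (1.34, SE 0.41), and ALX1, a homeobox factor of frontonasal mesenchyme, fell from 308.3 and 425 to 106.2 and 135.9 (−1.59, SE 0.47). TWIST1 lost its call without FGF2 replicate 2 (1.02) or no-FGF2 replicate 2 (1.05), and ALX1 without FGF2 replicate 1 (−1.41) or no-FGF2 replicate 2 (−1.36). The collagen and matrix genes COL1A2 (0.15, SE 0.33), DCN (−0.14, SE 0.96) and LUM (0.23, SE 1.25) did not pass. Without FGF2 replicate 2 or no-FGF2 replicate 2 the count of mesenchyme genes that rose was 1, and without no-FGF2 replicate 1 there were 2 that fell. Of 23 genes of endothelium and blood 1 rose and 0 fell (median 0.52), but the number that rose was 2 without either FGF2 array, 4 without no-FGF2 replicate 1, 3 without no-FGF2 replicate 2, and 3 after quantile normalization, with the eBayes trend or in the fit of 4 arrays. TAL1, a factor of blood and vessels, went from 16.5 and 25.3 to 58.2 and 43.9 (1.31, SE 0.45), a call lost without FGF2 replicate 1 (1.10) or no-FGF2 replicate 1 (1.00). The endothelial cadherin CDH5 was at 29.2 and 19.4 without FGF2 and 101.6 and 59.6 with FGF2 (1.71, SE 0.72), and passed in the fit of the 4 trigeminal arrays (SE 0.45), and the vessel or blood genes FLI1 (0.97, SE 0.39), TEK (2.45, SE 1.05), FLT1 (2.74, SE 1.45), KDR (1.10, SE 0.68) and LMO2 (0.53, SE 0.45) did not pass. All 6, named after their values were seen, had FGF2 arrays above both no-FGF2 arrays, whereas the globin gene HBE had them below (−0.76, SE 0.49). With 2 arrays against 2, 1 of the 6 possible splits gives this order, so the order alone shows little. In the markers VWF, PECAM1, HBA1 and HBZ the groups overlapped. Some of the 6 genes were very dim without FGF2, with FLT1 at 29.9 and 0.6 and TEK at 1.7 and 5.5. Of 24 genes of endoderm and heart 2 rose and 0 fell (median 0.48), namely ISL1, described above with sensory neurons, and the chemokine gene CXCL14, from 290.2 and 104.4 to 562 and 587.3 (1.72, SE 0.65). CXCL14 lost its call without either FGF2 array (1.75 and 1.69), no-FGF2 replicate 2 (0.99) or either otic array (1.72). Without no-FGF2 replicate 1, the array with more TTR, the endoderm and heart count was 9 higher, and without no-FGF2 replicate 2 it was 0.

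Of 24 genes of the neural tube, 4 rose and 0 fell (median 0.30), where 2.23% of all genes rose and 1.47% fell. The list includes NKX6-1. The homeobox gene DBX2 rose from 40.5 and 50.2 to 139.9 and 99 (1.38, SE 0.36), and OLIG2, a factor of ventral progenitors, rose from 84.6 and 57.3 to 191 and 165.5 (1.35, SE 0.38). PTCH1, the hedgehog receptor and a hedgehog target, rose from 279.8 and 259.8 to 634 and 514.9 (1.08, SE 0.43), but did not pass after quantile normalization (0.94). The abundant neural genes FABP7 (0.33, SE 0.39) and CDH2 (0.21, SE 0.35) did not pass. The summed intensity of 7 neural tube markers was 5284 and 7737 without FGF2 and 4781 and 4329 with FGF2. Much of these sums was PAX6, also a gene of lens and olfactory fate (3587.7 and 4168.9 against 1671.9 and 1838.5). Of the 7 markers, 2 rose and 0 fell. DBX2 lost its call without FGF2 replicate 1 (1.13), OLIG2 without FGF2 replicate 1 (1.25) or no-FGF2 replicate 2 (1.07), and PTCH1 without any one trigeminal array (0.93 to 1.23). The list count was 1 without FGF2 replicate 1.

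Of 45 genes of axon guidance and Eph signaling 3 rose and 0 fell (median 0.15). Over all genes 2.23% rose and 1.47% fell. The semaphorin and VEGF co-receptor NRP1 rose from 317.5 and 263.7 to 816.6 and 1258.3 (1.81, SE 0.49), and a second probe set gave 2.18 (SE 0.53). The ephrin receptor EPHA5 rose from 63.5 and 53.4 to 212 and 259.3 (2.01, SE 0.50). PLXND1, a semaphorin receptor, rose from 233.2 and 75.5 to 481.3 and 545.8 (1.95, SE 0.69), a call lost without either FGF2 array (2.04 and 1.86) or no-FGF2 replicate 2 (1.14), and the brightest probe set of NRP1 lost its call without FGF2 replicate 2 (1.5). PLXNA2, another plexin, was at 3060.3 and 2198.1 without FGF2 and 1277.3 and 1670.8 with FGF2 (−0.83, SE 0.41) and did not pass. Without either otic array 5 genes of the list rose.

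Lists of housekeeping programs held 1 call each, where 2.23% of all genes rose and 1.47% fell, and counts this small show nothing particular to a list. In the cell cycle list 1 of 40 measured genes rose, the CDK inhibitor CDKN2B, from 56.2 and 24.5 to 212.8 and 212.3 (2.52, SE 0.71, a call lost without no-FGF2 replicate 2 at 1.92), while CCNB1 (0.43, SE 0.33) and CDK1 (0.33, SE 0.36) did not pass, and the list median was 0.39 with 34 of 40 values above 0. Without either lateral array 2 genes of it rose. In cholesterol synthesis 1 of 22 fell, MVD, from 525.5 and 671.1 to 327.5 and 267.6 (−1.0, SE 0.40, lost without any one trigeminal array, −0.83 to −1.18). In glycolysis and hypoxia 1 of 25 rose, the neuronal enolase ENO2, from 103.8 and 143.2 to 328.5 and 256.1 (1.25, SE 0.46), a call lost without either FGF2 array (1.07 and 1.43) or no-FGF2 replicate 1 (1.02). ENO1, the common enolase, was at 0.09 (SE 0.32). In heat shock and stress 1 of 24 rose, the heme oxygenase HMOX1, at low intensity (2.93, SE 0.73). The list median was 0.30, with 21 of 24 values above 0.

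Several of the largest increases were outside these lists. MYBPC1, a myosin-binding protein of slow muscle, rose from 6.1 and 5.3 to 81.9 and 137.5 (4.22, SE 0.95). CRHBP, which binds corticotropin-releasing hormone, rose from 7.9 and 15.5 to 209.6 and 105.9 (3.75, SE 0.64), and otic ectoderm stood at 38.9 and 95. PHACTR1, a regulator of actin and protein phosphatase, rose from 28.7 and 31.6 to 337.3 and 187.7 (3.06, SE 1.08), and its call was lost without any one trigeminal array (2.64 to 3.49). KCNG1, a modifier subunit of potassium channels, rose from 34.9 and 7.1 to 133.3 and 107.4 (2.93, SE 0.81). For MYBPC1, CRHBP and KCNG1 at least 1 no-FGF2 array was far under the array median, so the size of the fold is uncertain although the groups did not overlap. With an offset of 32 added before the log2 the value of MYBPC1 was 1.88, that of CRHBP 2.07 and that of KCNG1 1.57, and all 3 calls were kept.

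**Figure D4:**
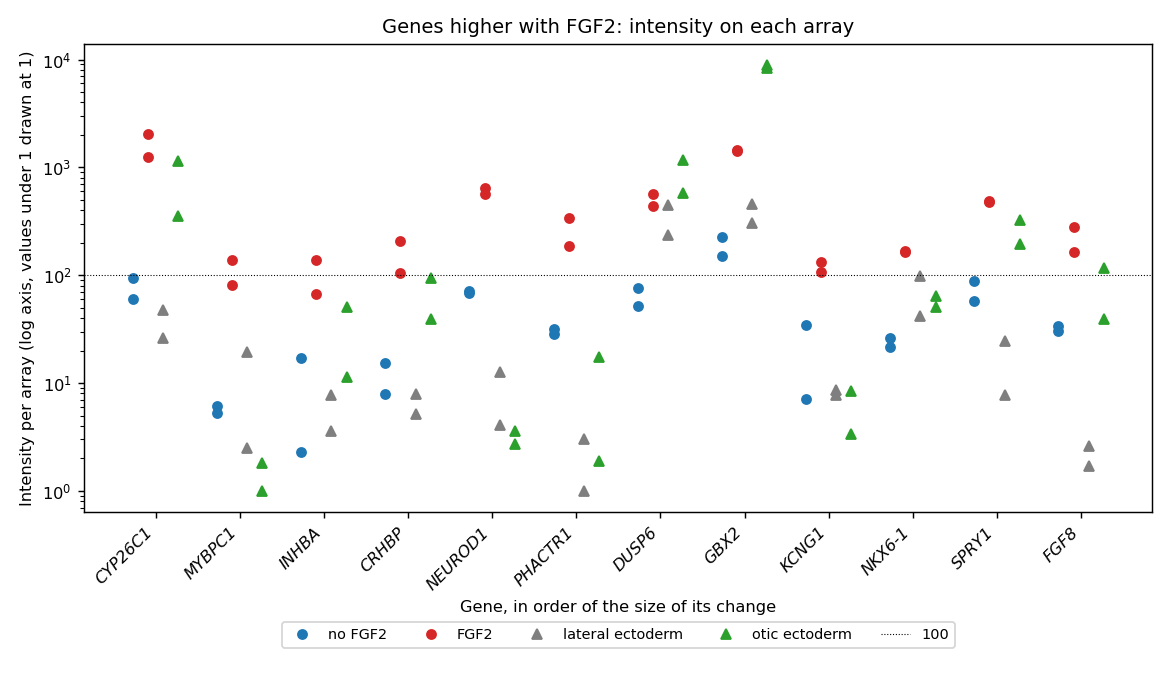
Intensity on each array (y axis, log scale) of the 12 genes of largest increase among bright probe sets, 1 probe set per gene, in order of change. Circles are the 2 arrays of trigeminal ectoderm without FGF2 (blue) and with it (red), triangles those of lateral ectoderm (gray) and otic ectoderm (green), and the dotted line marks 100. In all 12 genes both red points lie above both blue points, which the rule that picked the genes required. NEUROD1, MYBPC1, PHACTR1 and KCNG1 are among those low in both fresh tissues.

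Further bright genes that kept their calls in every setting in which they were tested were chosen after their values were seen. SULF1, an enzyme that removes sulfate from heparan sulfate, rose from 329.4 and 224.1 to 1102.1 and 1554.3 (2.27, SE 0.51). MRC2, a collagen uptake receptor, rose from 106 and 119 to 547.1 and 511.1 (2.24, SE 0.35), and VEGFD, a growth factor of lymphatic vessels, from 254.7 and 171.8 to 717.3 and 1121.7 (2.10, SE 0.42). VEGFD was dim in lateral ectoderm (14.3 and 19). SOCS2, an inhibitor of cytokine signaling, rose from 807.8 and 685.8 to 2072.3 and 2756.5 (1.68, SE 0.37), and GAL, the neuropeptide galanin, from 180.2 and 187.3 to 586.4 and 521.7 (1.59, SE 0.34). HAPLN1, which links hyaluronan to proteoglycans, rose from 403.9 and 173.2 to 1155.9 and 918.6 (1.96, SE 0.52), still below lateral ectoderm (2734.3 and 2574.5). In all, 42 bright probe sets of 37 genes kept an upward call and 13 of 11 genes a downward call under all of the 18 alternative settings in which they had a value.

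Genes that fell with FGF2 were fewer, and most of the 12 named for the largest decreases were in none of the lists. UPK1B, a uroplakin of epithelial membranes, was among the brightest, and fell from 2004.5 and 1677 to 475.1 and 294.4, by 2.29 on the log2 scale (SE 0.45, unadjusted p = 0.0020 from limma). Its other bright probe sets gave −1.36 (SE 0.36) and −1.03 (SE 0.41), both called lower. UPK1B was higher in lateral ectoderm (2886 and 4821.9) and near its no-FGF2 level in otic ectoderm (1724.1 and 2483.6). TDH, which codes for threonine dehydrogenase, fell from 3065.7 and 2878.8 to 874.5 and 900.9 (−1.74, SE 0.41), and VLDLR, a lipoprotein and reelin receptor, from 1317.8 and 1221.4 to 452.2 and 492.3 (−1.43, SE 0.44). TDH and VLDLR were chosen after their values were seen. The replicates of both genes lay close together in either group.

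GNB3, a G protein beta subunit, fell from 140.5 and 270.3 to 6 and 5.2 (−5.12, SE 0.83). LRRC17, which codes for a secreted protein, fell from 27.4 and 188.9 to 2.3 and 0.7 (−5.57, SE 1.11). GPM6A, a membrane glycoprotein of neurons, fell from 113.5 and 170.7 to 14.1 and 14.4 (−3.29, SE 0.76), with a second probe set at −2.33 (SE 0.62). The treated values of these 3 genes lay well under the array medians, so the sizes of their folds are uncertain. With the offset of 32 the values were −1.77 for LRRC17, −2.60 for GNB3 and −1.89 for GPM6A, and the calls were kept. All 3 were dim in both fresh tissues, at 13.9 or less in GNB3.

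ADCY8, an adenylyl cyclase of neurons, fell from 179.2 and 265.6 to 38.2 and 51.4 (−2.30, SE 0.56), and its second probe set gave −1.93 (SE 0.43). KCNMA1, the calcium-activated potassium channel, fell from 308.6 and 271.4 to 78.7 and 81.3 (−1.86, SE 0.37), to levels near those of otic ectoderm (58.3 and 58.6). PLA2G15, a lysosomal phospholipase, fell from 244.3 and 213.7 to 31.2 and 46.4 (−2.59, SE 0.45). Its brightest probe set, at 3453 and 3063.8 against 1722.4 and 2267, gave −0.72 (SE 0.46) and did not pass, and a further one gave −1.17 (SE 0.43) and did. The probe sets of this gene therefore differ in size of change.

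BNC1, a zinc finger factor of keratinocytes, fell from 288 and 136.3 to 17 and 56.7 (−2.67, SE 0.89), whereas lateral ectoderm held 469.4 and 613.6. ENPP2, the enzyme autotaxin, fell from 96.4 and 422.8 to 50.7 and 26.5 (−2.46, SE 0.79). EMILIN3, a matrix glycoprotein, fell from 382.4 and 244.1 to 98.8 and 67.4 (−1.90, SE 0.60). These 3 calls rested on single arrays. BNC1 lost its call without FGF2 replicate 1 (−1.81) or no-FGF2 replicate 1 (−2.13), ENPP2 without FGF2 replicate 2 (−1.99) or no-FGF2 replicate 2 (−1.40) and in the fit of the 4 trigeminal arrays (−2.46), and EMILIN3 without FGF2 replicate 2 (−1.63) or no-FGF2 replicate 1 (−1.58).

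**Figure D5:**
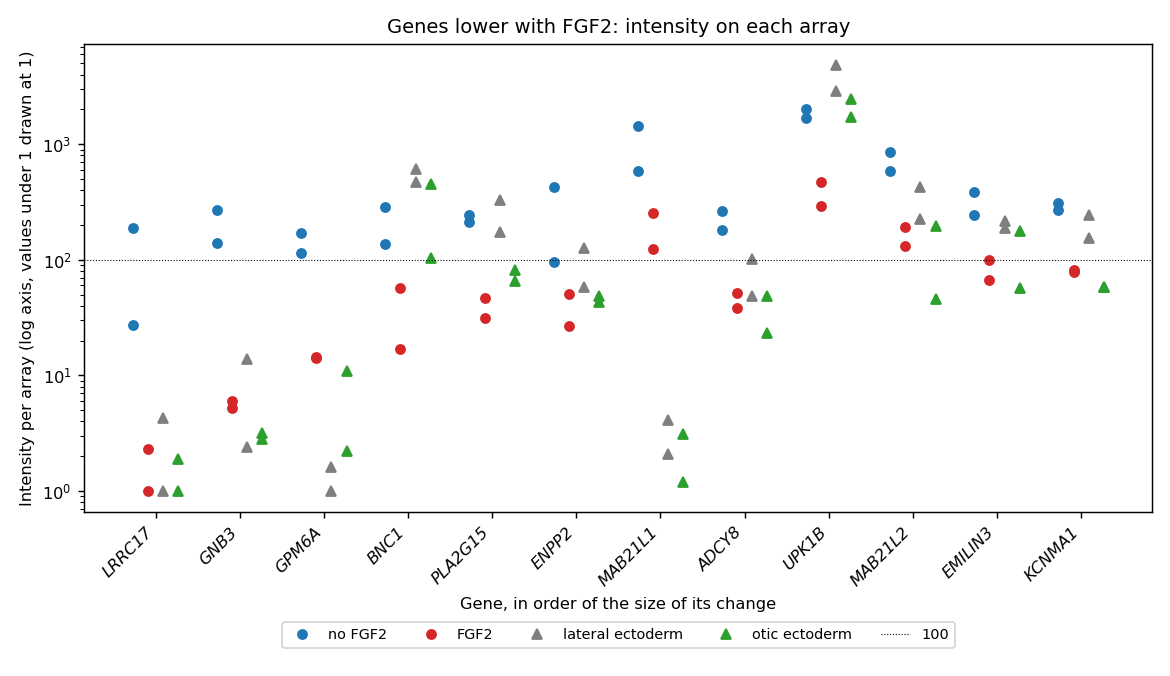
Intensity on each array (y axis, log scale, values under 1 drawn at 1) of the 12 genes of largest decrease among bright probe sets. Genes named by a LOC number were left out, among them LOC422872 (−1.87), which fell slightly more than KCNMA1 (−1.86). Point symbols are as for the genes of largest increase. Both red points (FGF2) lie below both blue points (no FGF2) in all 12 genes, which the rule that picked the genes required. LRRC17, GNB3, GPM6A and MAB21L1 are among those dim in the fresh tissues, whereas BNC1 and UPK1B are bright in lateral ectoderm.

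Genes measured by several probe sets mostly moved one way. Among genes with at least 2 bright probe sets, 44 had one or more that rose, and in 40 of them all bright probe sets had values above 0, although in only 10 did all pass. For decreases the numbers were 13, 11 and 4. There were 0 genes with bright probe sets called in opposite directions.

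The response to FGF2 overlapped in part with the difference between otic and lateral ectoderm. Of the 162 bright probe sets that rose with FGF2, 50 were also higher in otic than in lateral ectoderm (30.9% of the 162 and 9.82% of the 509 higher in otic ectoderm), where 4.38% of all bright probe sets were higher in otic ectoderm. Among the genes described above these include CYP26C1, GBX2, DUSP6, SPRY1, SPRY2, FGF8, EYA2, MECOM, PAX2, NGFR and FZD8. In the study's in situ hybridization, CYP26C1 and FGF8 were mostly missing from the otic placode and strong in ectoderm beside it. The study held that neighboring cells are likely to be in the dissected pieces. The otic values given above for these genes are therefore those of the pieces. A further 9 of the 162 were lower in otic ectoderm (5.56%, and 5.17% of the 174 lower there, against 1.5% of all bright probe sets), MYBPC1 among them. Of the 61 that fell, 11 were lower in otic ectoderm (18.0% of the 61 and 6.32% of the 174), such as KCNMA1, and 4 were higher (6.56% of the 61 and 0.786% of the 509), such as ALX1. Bright was set on the trigeminal arrays alone, so a call between otic and lateral ectoderm can rest on dim values. MYBPC1 stood at 19.6 and 2.5 in lateral ectoderm and at 1.8 and 1 in otic ectoderm. ALX1 stood at 12.9 and 12.8 in lateral ectoderm and at 28.3 and 62.1 in otic ectoderm. The 2 comparisons use different arrays but share 1 estimate of the spread, and the overlap is given as a description.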

How the data were processed

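Transcripts were measured on 8 Affymetrix Chicken Genome arrays, 2 per group in 4 groups. The deposited table holds 1 linear intensity per probe set and array, as summarised by the authors. Probe summary and array scaling stay not given in the sources used here; deposited values entered directly. The submitters' processing notes name limma without a version. Array medians were 25.6 to 31.7, and 2.30% to 2.90% of the values of an array were under 1. These were set to 1 and log2 was taken, with no scaling. All 38439 probe sets were fitted with lmFit and eBayes of limma 3.58.1 (R 4.3.3), with a mean for each of the 4 groups and 4 residual degrees of freedom, and p-values were adjusted by Benjamini-Hochberg over all of them. Precision is limited by the number of arrays, which carry no read depth. The log2 difference between 3′ and 5′ actin probe sets was 1.42 and 1.20 in the no-FGF2 arrays and 1.35 and 1.24 in the FGF2 arrays, and that of GAPDH 1.60 and 1.06 against 1.39 and 1.71.

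Gene names came from the platform annotation (27168 probe sets with 1 symbol, 177 with several, 10990 with none) and, for 104 probe sets, from the study's tables, giving 13036 genes. Genes were named by a rule, which passed over LOC numbers and probe sets without a symbol when it ranked changes. It took, in each direction, the 12 of largest change among called bright probe sets whose arrays did not overlap, the members of each of 22 lists past both limits (up to 6 per direction), up to 4 of the brightest members that did not pass, and further bright probe sets of these genes. FGFR2, FGFR3, the FGF2 gene, FOS, EGR1 and HESX1 were named outside it, after their values were seen, as the text says for others. Lists were counted on the probe set of highest mean per gene. The members, the lists and the rule were chosen with earlier results of these data known. The alternatives were quantile normalization, median centring, a fit of 4 arrays, filters on dim probe sets, the eBayes trend, offsets of 16 and 32, a replicate block, each array left out, a mean of 200, a fold of 1.5 and a p of 0.01. Figures were drawn with matplotlib 3.10.9. No sequences or coordinates were used here.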

Additional observations from a re-analysis of the deposited data

How the results depend on the processing

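The number of arrays, 2 pools per condition, limits every value, and dim probe sets limit the size of folds. Among all probe sets the calls, 1054 higher and 868 lower, fell to 522 and 254 without the 40% of lowest mean, to 194 and 64 with a mean of 100 or more over 8 arrays required, to 197 and 66 when the eBayes trend was added to that, to 347 and 176 when 16 was added ahead of the log2 and to 184 and 65 when 32 was added. The balance over all probe sets was not stable. Median centring gave 935 higher and 964 lower, and quantile normalization 950 higher and 921 lower. Lower calls also outnumbered higher ones when either FGF2 array was left out, whereas higher calls prevailed when either no-FGF2 array was. At an adjusted p under 0.05 from limma, 0 passed except for 9 with the mean of 100 and the trend and 1 with the offset of 32. Among bright probe sets (162 and 61), 48 rose and 16 fell at an unadjusted p under 0.01, and 99 fell after quantile normalization. Leaving out each array in turn gave 67 to 188 that rose and 30 to 68 that fell. The lowest counts came without FGF2 replicate 2, and without no-FGF2 replicate 1 there were 188 higher, of which 96 were among the 162. These fits assume that the single array left in a group varies as the other groups do. Same-numbered FGF2 and no-FGF2 arrays showed no shared shift (correlation of deviations −0.08). The sample labels do not say whether such arrays were prepared together. With the replicate number as a block 147 rose and 60 fell. The fit of the 4 trigeminal arrays gave 198 and 75. Over the named genes and settings, 2587 values kept their side of the limits, 178 no longer passed and 34 newly passed. No called value of a named gene changed its direction under these settings, but this was largely fixed in advance. Where the groups did not overlap, leaving out an array cannot reverse the sign. The eBayes trend, the filters, the replicate block and the fit of 4 arrays keep the same log2 difference. Why these counts moved was not tested, beyond the fewer probe sets or arrays that some settings use.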
